A study of Mus musculus with 2 samples.

Results

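Small nuclear RNA (snRNA) genes, which make the RNA parts of the spliceosome and of related particles, were examined for peaks of Usp16, an enzyme that removes ubiquitin from histone H2A. The set held the 1004 genes of biotype snRNA among 49943 RefSeq genes of mouse build GRCm38 on the assembled chromosomes. It was chosen by annotation, and a gene carried a peak when a listed peak overlapped the gene, extended by 1 kb on either side, by 1 bp or more. Which genes carried a peak was thus selected on the peak positions, so the counts, scores and widths below describe 1 list and were not tested. The chromatin came from bone marrow cells positive for c-Kit and Sca-1, taken from mice of the genotype Mx1 Cre:Usp16loxp/loxp, whose Cre gene is driven by an interferon-responsive promoter. Both libraries of the study, 1 with anti-Usp16 and 1 with IgG, came from this genotype, and the labels do not say whether Cre had been switched on. Each antibody had 1 library and no replicate, and a peak list does not measure the RNA or protein markers of the sorted cells. The list held 5079 peaks, of which 5046 lay on assembled chromosomes, with a caller's score from 50 upwards. How the caller defines its score is not given in the sources used here, nor is the read depth. The IgG library was not analysed here. Whether the caller used it as the control is also not given, so a score may or may not already be relative to IgG.

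The major spliceosome removes most introns with the U1, U2, U4, U5 and U6 RNAs. U1 pairs with the 5′ splice site, U2 with the branch site, U5 holds the exon ends, and U6, released from U4, forms the catalytic core. The minor spliceosome, which handles a rare class of introns, uses U11 and U12 in the places of U1 and U2. U7 guides the 3′ end cut of histone pre-mRNA, 7SK holds the elongation factor P-TEFb inactive, and U3 is a nucleolar RNA needed to cut the precursor of ribosomal RNA. RNA polymerase II transcribes most of these genes, and RNA polymerase III transcribes U6 and 7SK. Both kinds of promoter are recognised by the SNAPc complex and often hold an upstream octamer. Mammalian genomes also hold many copies of these genes, most of them of U6, that are thought to be inactive.

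The reference sequences used held promoter windows, from 250 bases before to 50 after a gene's start, of other genes only, and 2 snRNA genes lay wholly inside such a window and also under a peak. They are shown because the RNA itself can be read in them. Both are RefSeq sequences of GRCm38.p6, printed 5′ to 3′ with the snRNA gene in capitals. The first is the window of the lncRNA gene Gm26232 on the plus strand, chr3:96450389-96450688, which holds the predicted gene LOC115489800. The second is the window of the coding gene Grcc10 on the minus strand, chr6:124741020-124741319, which holds Rnu7.
LOC115489800: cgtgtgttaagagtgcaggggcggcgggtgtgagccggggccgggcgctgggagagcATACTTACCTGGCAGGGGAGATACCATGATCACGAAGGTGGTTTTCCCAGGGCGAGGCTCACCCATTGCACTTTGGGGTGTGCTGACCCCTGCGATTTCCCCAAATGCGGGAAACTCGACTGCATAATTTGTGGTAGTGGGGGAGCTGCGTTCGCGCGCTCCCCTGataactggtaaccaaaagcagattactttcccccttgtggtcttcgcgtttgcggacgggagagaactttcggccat
Rnu7: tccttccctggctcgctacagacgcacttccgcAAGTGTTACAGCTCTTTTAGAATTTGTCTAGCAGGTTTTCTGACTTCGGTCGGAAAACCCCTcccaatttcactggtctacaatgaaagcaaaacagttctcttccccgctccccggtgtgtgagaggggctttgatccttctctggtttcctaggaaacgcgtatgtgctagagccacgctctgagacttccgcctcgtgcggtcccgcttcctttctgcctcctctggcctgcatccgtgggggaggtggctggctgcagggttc
The 166 bases of LOC115489800 carry ACTTACCTG at positions 3 to 11 from the gene's 5′ end, the stretch by which U1 pairs with 5′ splice sites. The letters AATTTGT, part of the site where Sm proteins bind such RNAs, stand at positions 126 to 132 of LOC115489800 and at positions 21 to 27 of the 62 bases of Rnu7. Counted on both strands, AATTTGT was present in 3.17% of all 32851 promoter windows of the table and in 1.68% of the 2976 under any peak. Of the 12 windows under peaks that cover an snRNA gene, 3 held it (those of Alyref2, Gm26232 and Grcc10). The LOC115489800 gene was covered by a peak of score 185 and width 1293 bp, with its midpoint 29.5 bp from the gene's centre. The same peak reached the coding gene BC107364, the lncRNA gene Gm26232 and the tRNA gene n-TNgtt11. LOC115489800 and these genes cannot be told apart as its source. Rnu7 was covered by a peak of score 107 and width 1751 bp that also reached the coding genes Grcc10 and Atn1, so the 3 genes cannot be told apart as its source.

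One more window is shown because it lies beside a U6-length gene under a high-scoring peak. The promoter window of the Mediator subunit gene Med16 ends 6 bases short of the predicted gene Gm24019 (chromosome 10, 79909195 to 79909301, 107 bp), and it is shown on the plus strand, chr10:79908889-79909188, so that it reads towards that gene. RefSeq is again the source, in GRCm38.p6, and capitals mark the octamer letters and the TATA letters.
Med16 window: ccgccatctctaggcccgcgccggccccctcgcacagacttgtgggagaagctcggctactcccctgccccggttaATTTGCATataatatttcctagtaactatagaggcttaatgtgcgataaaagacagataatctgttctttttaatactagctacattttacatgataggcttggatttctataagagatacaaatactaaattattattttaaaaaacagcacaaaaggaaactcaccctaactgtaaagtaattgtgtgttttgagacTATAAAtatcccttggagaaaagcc
The octamer ATTTGCAT, which reads ATGCAAAT on the other strand, lay 230 to 223 bases from the nearer end of Gm24019, and TATAAA lay 31 to 26 bases from that end. The gene table gives no strand, so whether these letters lie before the start of Gm24019 was not established. The 12 promoter windows under the peaks that cover an snRNA gene belong to 11 genes. Among these windows, 3 held ATGCAAAT on either strand (those of Alyref2, D230017M19Rik and Med16). ATGCAAAT was present in 1.74% of all 32851 windows and in 1.48% of the 2976 windows under any peak. TATAAA, again on both strands, was in 3 of the 12 windows (those of C920006O11Rik, Gtf3c6 and Med16) in 13.6% of all windows and in 6.89% of those under any peak. These are matches of letters in windows of neighbouring genes, chosen after the peaks were seen, and they describe the windows only.

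Over the whole set, 63 of the 1004 snRNA genes carried a peak (6.27%), through 60 distinct peaks, 3 of which counted for 2 snRNA genes each. Among all annotated genes 10.2% carried one by the same rule, and among protein-coding genes, which are much longer, 17.9%. The share was 37.0% for tRNA genes, 3.81% for snoRNA genes and 3.34% for miRNA genes, which are short like the snRNA genes. The snRNA share as a whole was thus below that of all genes and far below that of tRNA genes. By name the counts differed widely: 15 of the 17 named genes carried a peak (88.2%), against 42 of 909 predicted genes with a Gm symbol (4.62%) and 6 of 78 with a LOC symbol (7.69%). A Gm or LOC symbol does not say whether a gene is active, and no RNA was measured. The contrast is thus one of names only. All 15 peaks at named genes covered the gene itself. At the predicted copies the peak covered the gene in 40 of 48 cases and lay beside it in 8. How reads that match several near-identical copies were placed is not given in the sources used here, so a peak at 1 copy may hold reads of another, and this was not tested.

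**Figure D1:**
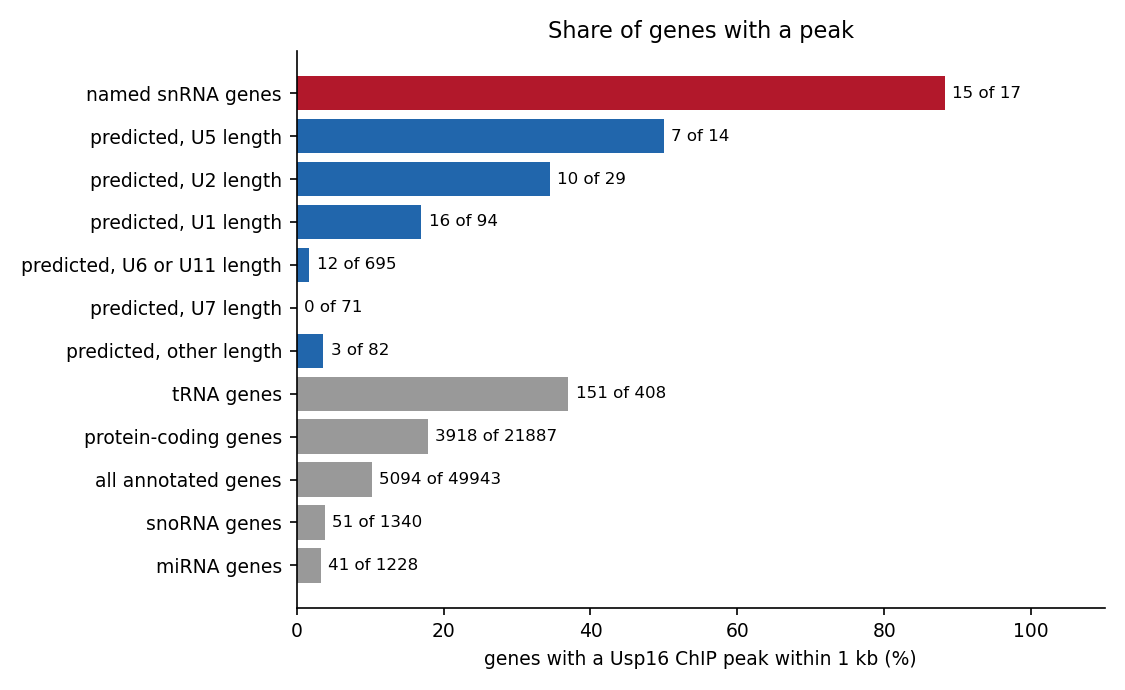
Bars give the share of genes (%, horizontal axis) with a Usp16 ChIP peak within 1 kb, for named snRNA genes (red), predicted snRNA copies grouped by the length of the named gene they match (blue) and other kinds of gene (grey), with counts beside each bar. Named genes stand at 15 of 17, and predicted copies range from 7 of 14 at U5 length to 0 of 71 at U7 length.

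The 4 named U1 genes, whose RNA recognises the 5′ splice site, all lay under a peak. Rnu1a1 (chromosome 11, 87422867 to 87423030) had the highest score of these, 336, with a width of 1574 bp. Rnu1b1 (chromosome 3, 96359953 to 96360117) had a score of 165, Rnu1b6 (chromosome 3, 96460024 to 96460189) one of 163 and Rnu1b2 (chromosome 3, 96374021 to 96374185) one of 142. The 3 Rnu1b peaks were narrower, at 888, 937 and 775 bp. Rnu1a1 thus stood apart from the Rnu1b genes in both score and width. The peak of Rnu1b6 also reached the tRNA gene n-TNgtt13 and the lncRNA genes Gm10685 and Gm40099. Rnu1a1 lies in the coding gene Tex14 but 17.9 kb from any coding gene end.

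For U2, which pairs with the branch site, the table names 1 gene, Rnu2-10 (chromosome 11, 101658238 to 101658424). Its peak had a score of 412 and a width of 1829 bp and reached no other annotated gene, and the nearest coding gene end was 7.12 kb away. U5, the RNA that holds the exon ends, is represented by Rnu5g (chromosome 9, 65201726 to 65201841), with a score of 211 and a width of 2019 bp, at a peak that also reached the lncRNA gene Gm40527. Rnu6, the 1 gene named for U6, the catalytic RNA, was the exception among the named spliceosomal genes. It lies on chromosome 17 (13432033 to 13432139) and carried no peak, and the nearest one lay 66.5 kb away. This does not speak for U6 genes in general. Of the predicted copies of U6 or U11 length, 6 were covered by a peak, with a score of up to 402 at Gm24019, although length does not identify the RNA. No gene of the table is named for U4, so predicted copies could not be matched to U4 by length.

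Both named genes of the minor spliceosome carried high-scoring peaks. Genes named Rnu4atac and Rnu6atac were also sought but none was present, so predicted copies could not be matched to them by length. Rnu11 (chromosome 4, 132270079 to 132270186), the counterpart of U1, had a score of 544 and a width of 1207 bp at a peak that reached no other annotated gene. Its score ranked 17 among the 5046 peaks. Rnu12 (chromosome 15, 83149645 to 83149794), the counterpart of U2, had a score of 260 and a width of 1349 bp, with the peak's midpoint 39.5 bp from the gene's centre. This peak also reached an end of the coding gene Poldip3, 267 bp from Rnu12, so the 2 genes cannot be told apart as its source. With Rnu7 at 107, the scores of these 3 genes spanned a wide range.

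Rnu3b2 and Rnu3b3, genes of U3, the nucleolar RNA, held the highest scores of the whole set. Rnu11 (544) and the predicted copy Gm24950 (531) scored above the other U3 genes. Rnu3b2 (chromosome 11, 87471368 to 87471582) had a score of 657, which ranked 9 in the list, and its peak midpoint fell 3 bp from the centre of the gene. Rnu3b3 (chromosome 11, 87448627 to 87448841) followed at 598, Rnu3b4 (chromosome 11, 87462286 to 87462503) at 529 and Rnu3b1 (chromosome 11, 87443237 to 87443451) at 496. These 4 genes lie inside Tex14, between 38.2 and 66.4 kb from any coding gene end. The peak of Rnu3b1 also reached the annotated gene LOC115487798. Rnu3a (chromosome 10, 40258468 to 40258679) was lower, at 191, with a wide peak of 2280 bp shared with Gtf3c6, which encodes a subunit of a factor for RNA polymerase III. The score of Rnu3a therefore lay below those of all 4 Rnu3b genes. Rn7sk (chromosome 9, 78175302 to 78175633), the gene of the P-TEFb inhibitor, had a score of 272 and a width of 1696 bp. Its peak also reached the lncRNA gene C920006O11Rik.

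The other named gene with no peak was Snord73b, which by its symbol is a snoRNA gene although the table gives it the biotype snRNA. It lies inside the ribosomal protein gene Rps3a1, and the nearest peak, of score 172, was 1.52 kb away. Of 8 records named as Rnu pseudogenes (3 of Rnu3b, 2 of Rnu6 and 3 of Rnu7), which carry another biotype and were not part of the set, none had a peak within 1 kb.

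The predicted copies were grouped by length, since their symbols do not give the U class: a copy was placed with the named gene whose length it matched within 4 bases. This groups sizes and does not identify the RNA. Of 695 copies of the length of Rnu6 or Rnu11, 12 carried a peak (1.73%), the lowest share among the groups with any. U1-length copies carried one in 16 of 94 cases (17.0%), U2-length copies in 10 of 29 (34.5%) and U5-length copies in 7 of 14 (50%). None of 71 copies of U7 length did, although Rnu7 itself lay under a peak. The U6 and U11 length group makes up most of the predicted copies, so it weighs most on their overall share. Among 82 copies of other lengths 3 carried a peak, Gm24265 and Gm24407 of 141 bp and Gm25541 of 126 bp. Where only copies of exactly a named gene's length were counted, the shares were 9 of 416 for U6 and U11, 16 of 50 for U1 and 6 of 8 for U5. For U2 the exact length gave 1 copy, without a peak, because the copies with one were 191 bp long and Rnu2-10 is 187 bp long.

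In the U6-length group the peak covered the gene in 6 copies and lay beside it in the other 6. The 2 highest-scoring of the covered copies were Gm24019, at 402, and Gm25064 (chromosome 9, 63133283 to 63133389), at 397. The Gm24019 peak also reached Med16 and R3hdm4, whereas that of Gm25064 reached no other annotated gene and lay 4.78 kb from the nearest coding gene end. Next came LOC115488100 and Gm23296 on chromosome 12, which share a peak of score 243, and Gm26243 on chromosome 10, at 149 and shared with Tmem259. The peak of score 243 also reached the annotated genes 1700031P21Rik and Gm35239. Gm25323 was covered only by the flank of a peak of score 58.0 that reaches Thrap3, with the midpoint 988.5 bp away. The 6 copies with a peak beside them were Gm23137, Gm24311, Gm24283, Gm23851, Gm24424 and Gm25101, at gaps of 221 to 590 bp. Gm23137 counted through the peak of score 496 that covers Rnu3b1, 360 bp away. The peaks of Gm24311, Gm24283, Gm23851 and Gm25101 reached the coding genes Ccz1, Klhdc4, Cops7a and Cdh12, in that order. The peak of Gm24424 reached no other annotated gene.

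In the U1, U2 and U5 length groups nearly all peaks covered the gene. All 10 U2-length copies with a peak had it over the gene, led by Gm24950 (chromosome 11, 101641748 to 101641938) at 531. The U1-length copies were covered in 15 of 16 cases, led by Gm22634 (chromosome 12, 54710308 to 54710471) at 476. The exception was Gm25189, whose peak of score 66.2 lay 986 bp away at the coding gene Fam98b. Of the 7 U5-length copies 6 were covered, led by Gm25099 (chromosome 4, 117189942 to 117190057) at 330, and Gm24940 had its peak, of score 173, 956 bp away at Gorab. Gm25313, the U5-length neighbour of Rnu5g, had a score of 305, above the 211 of Rnu5g itself. LOC115487699 had one of 196 at a peak shared with Alyref2, an mRNA export factor gene. Gm22265, inside Hhat, had the lowest score of all genes with a peak, 57.9. Of the U2-length copies outside clusters, Gm23444 had a score of 257 and Gm22973 one of 163. Gm25541 (chromosome 2, 27539805 to 27539930), of 126 bp, had a score of 505 and shared its peak with the lncRNA gene Gm13421. Gm24265 and Gm24407, which lie 0.936 kb from end to end on chromosome 5, were covered by 1 peak of score 292 that also reached Sirt4, a mitochondrial sirtuin gene, and Pxn.

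Gm24940 and Gm25189 were the 2 genes just inside the border of 1 kb. Just outside it were Gm22818, 1.28 kb from a peak of score 54.2, and Gm23269, 1.32 kb from one of 57.7. The median distance from a gene without a peak to the nearest peak was 224 kb. A window of 5 kb in place of 1 kb counted 84 of the 1004 genes, against 63.

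Copies that sit close together carried peaks in a larger share than copies that stand alone, a difference that was not tested. Genes at most 20 kb from the next snRNA gene were joined into clusters, a distance chosen after the peaks were seen. All 25 genes in the 5 clusters of 3 or more carried a peak, as did 12 of 44 genes in the 22 pairs and 26 of 935 solitary genes (2.78%). The counts by length group were as follows. U1-length copies carried a peak in 8 of 8 cases in clusters of 3 or more, in 3 of 5 in pairs and in 5 of 81 when solitary. U2-length copies did so in 7 of 7, 0 of 2 and 3 of 20, and U5-length copies in 3 of 3, 1 of 1 and 3 of 10. U6-length copies did so in 1 of 1, 2 of 25 and 9 of 669, and the 1 copy in a cluster of 3 or more was Gm23137, counted through the peak that covers Rnu3b1. When genes up to 100 kb apart were joined, 33 of 57 genes in clusters of 3 or more carried a peak (57.9%), against 22 of 867 solitary genes (2.54%).

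**Figure D2:**
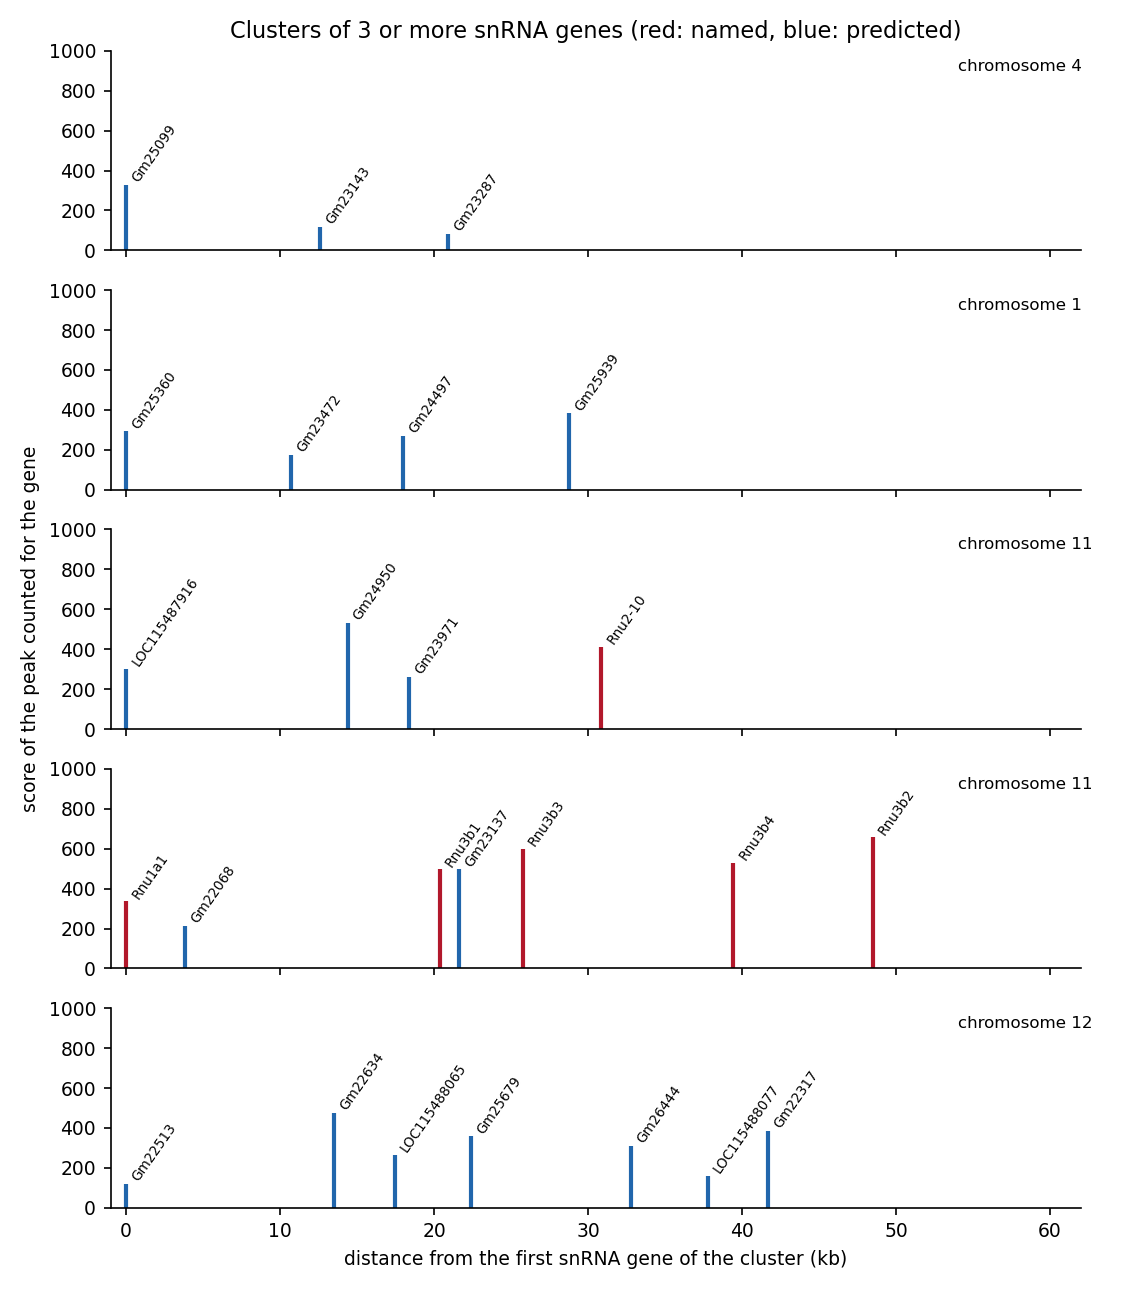
Each panel is 1 of the 5 clusters of 3 or more snRNA genes. Lines stand at each gene's distance from the first gene of the cluster (kb, horizontal axis) and reach to the caller's score of its peak (vertical axis), red for named and blue for predicted genes. All 25 genes have a line, from 81.5 at Gm23287 to 657 at Rnu3b2, and Rnu3b1 and Gm23137 share 1 peak.

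The cluster with the highest scores spans 48.7 kb of chromosome 11 inside Tex14 and holds Rnu1a1, the U1-length copy Gm22068, the 4 Rnu3b genes and Gm23137. Its 7 genes had 6 peaks with scores of 214 to 657. A second cluster on chromosome 11, of 31.1 kb, holds Rnu2-10 and the U2-length copies Gm24950, Gm23971 and LOC115487916, with 4 peaks of 412, 531, 263 and 300.2. Another, on chromosome 1 over 29.0 kb, holds 4 further copies of 191 bp with no named gene among them: Gm25360 at 292, Gm23472 at 176, Gm24497 at 268 and Gm25939 at 383. Of these 4 copies 3 scored within the range of the copies beside Rnu2-10, and Gm23472 scored below it. The peaks of Gm24497 and Gm25939 also reached the annotated gene D230017M19Rik.

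On chromosome 12 a cluster of 41.8 kb holds 7 copies of 164 bp, the length of Rnu1a1. Each had a peak of its own. The scores were 119.8 at Gm22513, 476 at Gm22634, 265 at LOC115488065, 358 at Gm25679, 311 at Gm26444, 159 at LOC115488077 and 384 at Gm22317. Apart from Gm22513, whose peak of 2627 bp reached the coding gene Eapp, none of these peaks reached a coding gene. Those of Gm22634 and LOC115488065 also reached the annotated gene Gm2395. Those of Gm26444, LOC115488077 and Gm22317 also reached the annotated gene Gm2412. On chromosome 4, 3 copies of 116 bp, the length of Rnu5g, differed widely, with 330 at Gm25099, 116 at Gm23143 and 81.5 at Gm23287. A looser run of 8 genes of 165 to 166 bp spans 160 kb of chromosome 3 and includes the 3 Rnu1b genes. Of these 8 genes 7 carried a peak, with scores of 97.5 at Gm22614 to 185 at LOC115489800, and Gm24136 did not.

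Position relative to coding genes was examined because 2466 of the 5046 peaks lie at coding gene ends. Of the 1004 genes, 851 lay more than 5 kb from every end of a coding gene, and 39 of these carried a peak (4.58%). Within 5 kb the count was 24 of 153 (15.7%). By the same distance and rule 24.0% of tRNA genes, 0.282% of snoRNA genes and 0.865% of miRNA genes far from coding gene ends carried a peak. Shares of these kinds of gene within 5 kb were not counted separately, so the 15.7% has no comparison share here. Among named genes 10 of 11 far ones carried a peak, the exception being Rnu6, and 5 of 6 near ones, the exception being Snord73b. The 10 far named genes were all 4 U1 genes, the 4 Rnu3b genes, Rnu2-10 and Rnu5g.

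Among predicted copies far from coding ends, 13 of 79 of U1 length carried a peak, 6 of 25 of U2 length, 4 of 10 of U5 length and 6 of 594 of U6 or U11 length. Within 5 kb of a coding end the U6-length share was 6 of 101 (5.94%), and the difference was not tested. Of all 63 genes with a peak, 35 had a peak that reached no coding gene by the 1 kb rule, and 21 had one that reached no annotated gene other than snRNA genes. Without the peaks at coding gene ends, 48 of the 1004 genes (4.78%) still carried a peak. Rnu12, Rnu7 and Rnu3a were not among them.

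The peaks at snRNA genes stood high in the list by score and by width. Their median score was 206 (quartiles 140.1 and 331.4), where the median of all 5046 peaks was 69.9 (quartiles 57.89 and 96.94), and 57 of the 60 lay at or above the latter. Peaks at coding gene ends had a median score of 74.4 and peaks at tRNA genes one of 88.4. Median width was 1471 bp at snRNA genes, 683 bp over the list, 788.5 bp at coding gene ends and 1044 bp at tRNA genes. A width of 1000 bp or more was found in 43 of the 60 snRNA peaks (71.7%) and in 18.3% of all peaks. Of the 100 highest-scoring peaks of the list, 21 lay at an snRNA gene, and of the highest 50, 12 did.

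**Figure D3:**
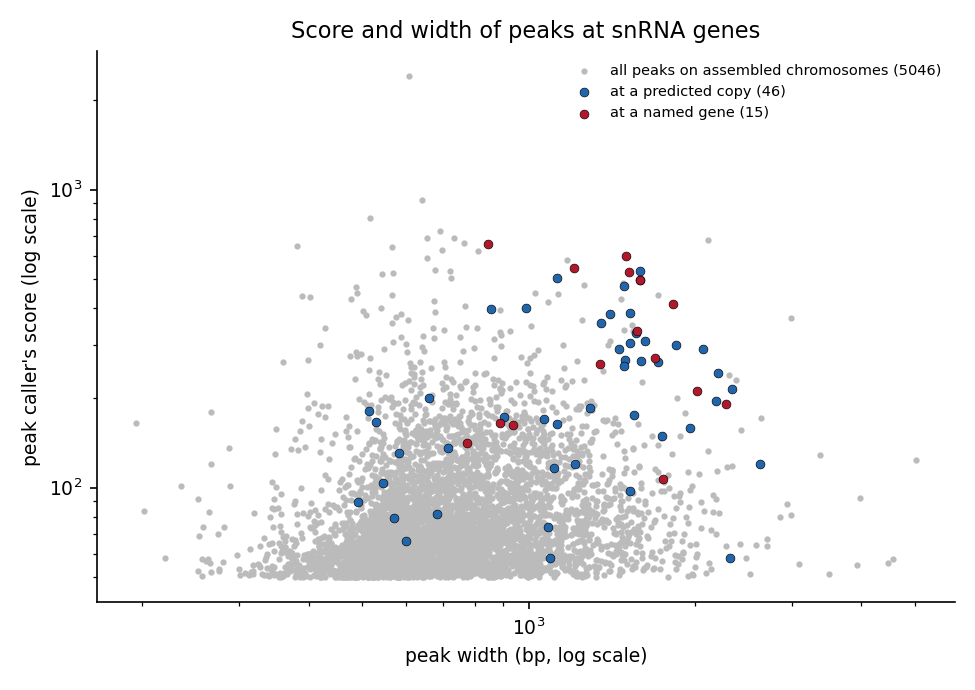
Each point is 1 peak on the assembled chromosomes, by width (bp, log scale) and caller's score (log scale), grey for all 5046, blue at a predicted snRNA copy and red at a named snRNA gene. The peak shared by Rnu3b1 and Gm23137 is in both coloured groups, and most coloured points lie above the medians of the whole list, 683 bp and 69.9.

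The 53 peaks that covered an snRNA gene had a median score of 257 and a median width of 1500 bp. The 7 that lay beside one without covering any had medians of 104 and 600.0 bp, closer to those of the list. Among the 46 snRNA peaks away from coding gene ends the median score was 250, and among the 14 at a coding gene end it was 161. The named genes had a median score of 272 and the peaks of predicted copies one of 190.3, with ranges of 107 to 657 and 57.9 to 531 that overlapped widely.

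For the 55 genes covered by a peak, the midpoint lay a median of 161 bp from the gene's centre (quartiles 73.0 and 257.5), and within 250 bp in 40 of them. Midpoints fell on the higher-coordinate side in 29 genes and on the lower in 26. The table gives no strand for these genes, so upstream and downstream are not distinguished. The peaks were mostly several times longer than the genes, as the plot of peak extents shows. A few were different: 3 solitary copies of U1 length had the narrowest peaks of the covered genes, each centred almost on the gene. They were Gm22042 on chromosome 4 (492 bp, midpoint 7.5 bp from the centre, score 89.5), Gm26244 on chromosome 18 (514 bp, 9 bp, 181) and Gm24924 on chromosome 18 (529 bp, 0.5 bp, 166). The solitary U2-length copy Gm26316 was similar, with 661 bp, 13 bp and a score of 200.4. These compare with widths of 1353 to 2627 bp at the U1-length copies in the clusters of 3 or more. Narrow, centred peaks were not confined to solitary genes. In clusters of 3 or more, Gm23287 of U5 length had 682 bp and 70 bp, and Rnu3b2 had 843 bp and 3 bp. The solitary U1-length copy Gm24830 had a wider peak, of 1066 bp.

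**Figure D4:**
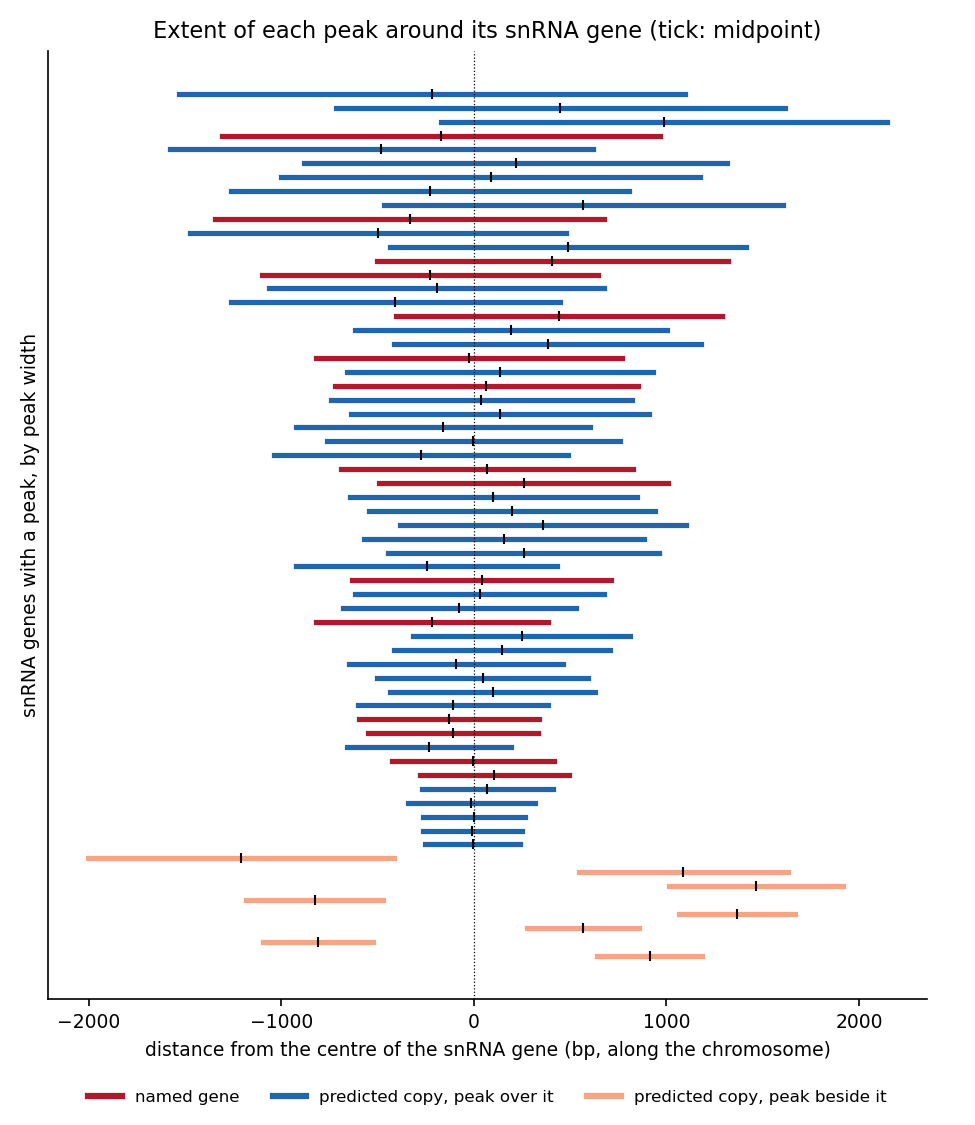
Each line is the extent of the peak counted for 1 of the 63 snRNA genes, as distance along the chromosome from the gene's centre (bp, horizontal axis), with a tick at its midpoint, ordered by width (vertical axis). Peaks that cover the gene (red for named, blue for predicted) spread around 0, with the narrowest centred on it, and the 8 that lie beside a gene (orange) are placed at the bottom.

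The genes with a peak were spread unevenly over chromosomes. Chromosomes 11 and 12 had the most, with 13 of 63 and 10 of 44 genes, and they hold 3 of the 5 clusters of 3 or more. On 7 chromosomes (7, 13, 16, 17, 19, X and Y), which together hold 264 snRNA genes, none carried a peak. Chromosome X alone holds 72 of them. The share over all genes was not counted by chromosome, so whether these chromosomes hold few peaks of any kind is not shown here. The unevenness was not tested.

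The coding genes whose products make and assemble these RNAs were counted by the same rule. The gene lists used were chosen with earlier results of these data known. Of the 81 genes on 6 lists, 42 carried a peak (51.9%), where 17.9% of all protein-coding genes did, a difference that was not tested. None of these 42 peaks lay at an snRNA gene. Integrator, the complex that cuts the 3′ end of snRNA transcripts, had the highest share, with 10 of 14 subunit genes, led by Ints4 (184), Ints14 (134) and Ints12 (132). Of the genes for Sm, LSm and other snRNP proteins, which bind the finished RNAs, 13 of 22 carried a peak, led by Snrpa1 (154), a U2 protein gene, Lsm6 (135) and Snrpd3 (132). Genes for assembly by the SMN complex and for nuclear export did so in 9 of 17 cases, led by Wdr77 (273) and Prmt5 (145), which methylate Sm proteins together, and Ncbp2 (119.6), a cap-binding protein gene.

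The remaining 3 lists were short, and differences between lists were not tested. SNAPc and its partners, which start transcription of snRNA genes, had 5 of 12: Snapc5 (128), Gtf2b (111), Gtf2a1 (99.2), Brf2 (96.0), which serves RNA polymerase III at U6 genes, and Pou2f1 (70.0), which encodes an octamer-binding protein. The proteins of U3 and 7SK particles had 3 of 8, Nop56 (111), Nop58 (62.5) and Larp7 (57.2), and those of the minor spliceosome had 2 of 8, Snrnp35 (79.8) and Rnpc3 (70.7). Apart from Wdr77, at 273, the genes of all 6 lists scored below 206, the median of the peaks at snRNA genes.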

How the data were processed

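Chromatin of sorted mouse bone marrow cells gave 1 deposited peak list, from the 1 anti-Usp16 library. Per the file headers, the authors called peaks with MACS in Galaxy. Bowtie, Picard and build mm10 appear in the submitters' processing notes, without versions. The deposited score is a value that the caller gave each peak, and the other values used are peak starts and ends. Starts were read as 0-based and made 1-based, and 33 peaks off the assembled chromosomes were left out. Gene positions came from RefSeq GRCm38.p6, the assembly that mm10 stands for. Python 3.11, pandas 2.3.3, NumPy 2.4.6, SciPy 1.17.1 and Matplotlib 3.10.9 were used, and peak assignment was tested on simulated data. With 1 library no test over samples exists, so shares and medians are descriptions. Exact binomial (Clopper-Pearson) intervals of 95%, which cover counting error only, served to judge the alternatives.

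The members and lists were chosen with earlier results of these data known. By rule the text names every named snRNA gene, the 10 predicted copies and the 10 genes far from coding ends with the highest scores, the 2 genes nearest the 1 kb border on each side, and up to 3 genes per coding list. Others were named, and the cluster distance of 20 kb and the length classes chosen, after values were seen. The rule on symbols overlooked LOC records, which were counted here as predicted. No snRNA gene had a promoter window of its own, so the planned letters were read in windows of neighbouring genes. Alternatives were the gene body only, windows of 500 bp and 5 kb, the peak midpoint or 50% of the peak in the window, scores at or above the median, shared peaks counted once, distances of 2 and 10 kb, and leaving out chromosomes X and Y.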

Additional observations from a re-analysis of the deposited data

How the results depend on the processing

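Of 139 values under other settings, 133 stayed within the counting interval of the main share, the interval (from order statistics) of the main median or 1.5 times the main count, and 6 moved. With a window of 5 kb the share of snRNA genes with a peak was 8.37% and that of predicted copies 6.89%. After the data were seen, the count of coding genes was given other windows and scores, and peaks at coding gene ends were also left out, which gave 4.78% for all snRNA genes and 0% for U12 and for U7, each 1 gene. Counting LOC records as named, as the rule was worded, gave 22.1% for named genes (21 of 95). A class of 1 gene has an interval so wide that only a change from 1 to 0, or from 0 to 1, of 1 gene can show. Many of the 139 values belong to such classes. Others could not change, such as the named genes without chromosomes X and Y, where none lies. The count of 133 is thus no measure of how firm the results are. No paired analysis was possible because the study has 1 library per antibody. Depth is unknown and no peak scoring below 50 is listed, so a missing peak does not show absent binding.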
